A study of Drosophila melanogaster with 46 samples.

Results

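Eukaryotic translation initiation factors were followed through 15 comparisons of sex, gonad and genotype in adult Drosophila melanogaster on 2-colour spotted arrays. A gene was included if its symbol in the platform's gene table starts with eIF, which gave 38 genes of the 10850 named on the array, printed as 44 elements of 15732 and 88 spots of 31464. All 38 genes were measured on at least 2 arrays of ovary against testis. Adult flies were 3 to 5 days old and kept at 25 C, and 200 ng of poly(A)-selected mRNA went into each Cy3 or Cy5 probe, per the labels. On 44 arrays the channels held RNA of different sources, and on 2 control arrays both held RNA of mixed sexes. The unmutated flies were labelled y[1]w[67c], although the source field gives y[1]w[1] on some arrays. They gave whole females, whole males, dissected ovaries and testes, and the gonadectomized carcasses of each sex. The sex-determination mutants were XX and XY flies carrying tra2[B]/TRIX in a w[67c] background, the XY flies with a BsY chromosome, and XX flies of genotype +/+;dsx[M+R45]/dsx[swe]. The tudor flies were whole females and males without a germline, the offspring of mothers of genotype tud[1] bw[1]sp[1]. Where a mutant or tudor fly was set against the y w strain, the genetic background differs together with the mutation and the arrays cannot tell them apart.

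Initiation begins when eIF2 brings the initiator tRNA to the small ribosomal subunit, on which eIF3, a complex of many subunits, and eIF1 are assembled. The messenger is brought in through its cap by eIF4F, in which eIF4E holds the cap, eIF4A unwinds the leader and eIF4G joins these to eIF3 and the ribosome. eIF5 triggers GTP hydrolysis on eIF2 at the start codon, eIF5B promotes joining of the large subunit, and eIF2B recharges eIF2 with GTP. Drosophila carries several eIF4E genes and further copies of eIF4G and of some eIF3 subunits, and a number of these copies are known from the male germ line, where many messengers are stored before sperm form and translated later. Loss of eIF4G2 or of eIF4E3 is known to disturb male meiosis and sperm differentiation in flies.

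The measured value was the log ratio of both channels, taken as log2 and turned so that the RNA named first is the numerator. Neither the log base nor the numerator channel is given in the sources used here, and the direction is therefore likely rather than stated. It rests on yolk genes, higher in females (3.51 for Yp1, 4.02 for Yp2 and 2.83 for Yp3), and on testis genes, lower in ovary than in testis (-3.34 for betaTub85D, -3.77 for Mst87F and -3.86 for dj), each on 4 of 4 arrays. An array measured between 7994 and 14881 elements (median 12375), and the number of arrays, 4 in 7 comparisons and 2 in 8, limits the precision. Array 15b, of the tra2 mutants, stood apart from the other arrays of its comparison, and the first subarray of arrays 7b and 8b, opposite in sign to the rest, was left out. Values given as ± carry the standard error of the fit, which uses a residual variance shared by all comparisons. A gene was called at a limma adjusted p below 0.05, with Benjamini-Hochberg adjustment over all elements tested in that comparison. The labels do not say whether repeats such as 5a and 5b came from separate extracts, so the p-values measure the spread between these arrays, which may be technical. In the tissues compared here, fewer cells of a type and less RNA per cell cannot be told apart. A gene on an array is compared only with itself in another RNA, never with the level of another gene. On the 2 arrays with mixed RNA in both channels, initiation factor values lay between -0.82 (eIF4E6) and 0.34 (eIF4G1), with a median absolute value of 0.0926 over 61 values.

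In ovary against testis the initiation factors split into a larger group with more transcript in ovary and a smaller group with more in testis. Of the 38 genes, 18 were higher in ovary and 12 were higher in testis. Over all 13128 elements tested 66.7% were called, 34.8% higher in ovary and 31.9% lower, and the share of initiation factors higher in testis (12 of 38) was near that background. The strongest testis-higher members were the eIF4F copies eIF4E5, eIF4G2 and eIF4E4, at 8.04, 6.28 and 5.87 times their ovary level. The strongest ovary-higher members were the eIF3 subunits eIF3f1 and eIF3d1, at 2.72 and 2.51 times their testis level. Among all elements 1.52% were lower than eIF4E5, 2.72% lower than eIF4G2 and 3.13% lower than eIF4E4, while 2.12% were higher than eIF3f1 and 2.80% higher than eIF3d1. The 8 genes not called were eIF1, eIF2Bbeta, eIF3j, eIF3k, eIF4E6, eIF4EHP, eIF5 and eIF6, with ratios between 0.02 and 0.43. Markers of other cells moved with the same contrast. All 7 accessory gland genes measured were lower in ovary than in testis (median -3.02), as were 5 of 6 testis genes, while all 4 follicle cell genes were higher in ovary. Their part in the ratios of the initiation factors was not tested.

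**Figure D1:**
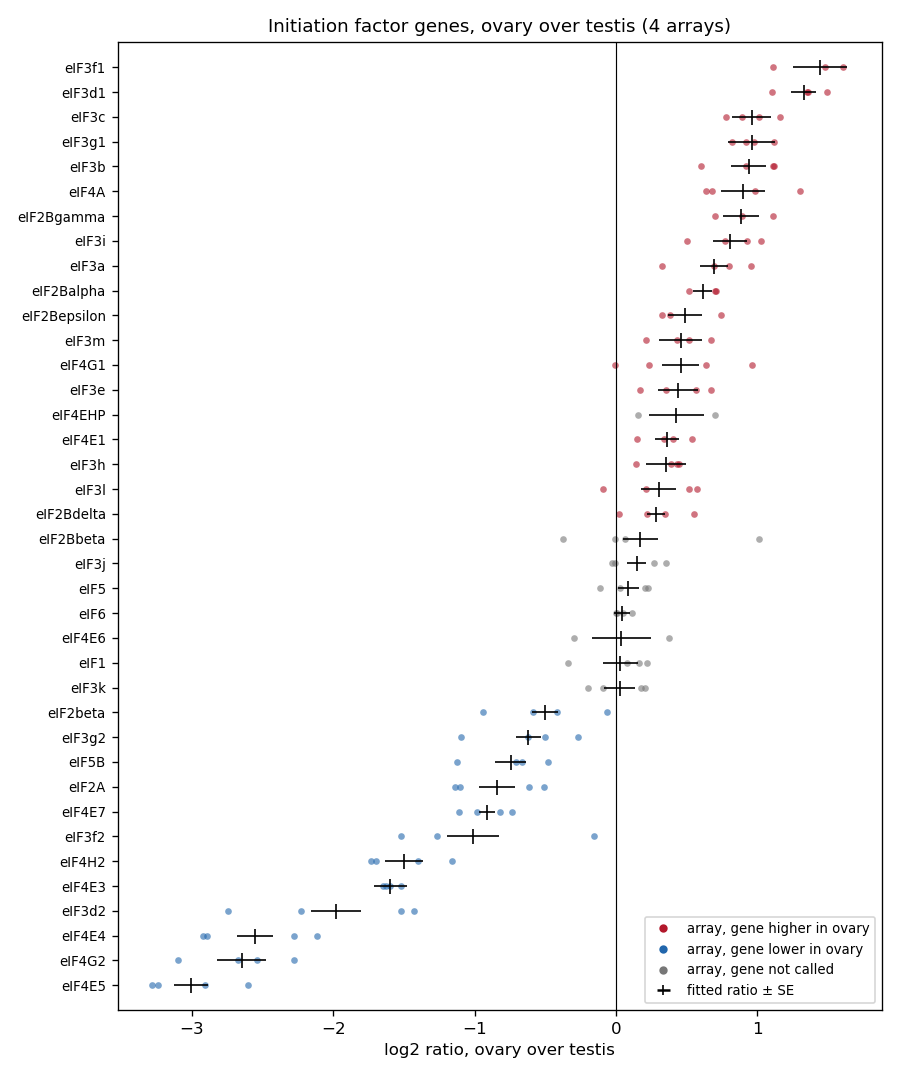
Log2 ratio of ovary over testis for the 38 initiation factor genes, 1 point for each of up to 4 arrays coloured by the call, with the fitted ratio and its SE as a bar. The 12 testis-higher genes end at -3.01 for eIF4E5 and the 18 ovary-higher genes end at 1.44 for eIF3f1.

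The eIF4E family, which holds the cap, held the lowest ratio among the initiation factors. The ovary over testis ratio of eIF4E5 was -3.24, -2.60, -3.28 and -2.91 on arrays 5a, 5b, 6a and 6b. All 4 arrays lay far below 0, the fitted ratio was -3.01 ± 0.12 (limma adjusted p = 1.09e-19), and 200 of 13128 elements (1.52%) were lower. For eIF4E4 the 4 arrays read -2.89, -2.11, -2.93 and -2.28, giving -2.55 ± 0.12 (limma adjusted p = 4.48e-17). eIF4E3 was the most even of these copies, with -1.65, -1.52, -1.62 and -1.60 and a fit of -1.60 ± 0.12. eIF4E7 was also higher in testis on each array (-0.98, -0.82, -1.11 and -0.74), but only by 1.88 times. The general cap-binding protein gene eIF4E1 went the other way. Its arrays read 0.41, 0.54, 0.34 and 0.15, all above 0, for a fit of 0.36 ± 0.09 (limma adjusted p = 0.0004). eIF4EHP, a cap-binding protein known to repress messengers in the fly embryo because it does not engage eIF4G, was measured on 2 arrays (0.70 and 0.16) and not called (limma adjusted p = 0.0544). eIF4E6, also on 2 arrays, stood at 0.04 ± 0.21, with arrays of -0.30 and 0.38.

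The scaffold eIF4G showed the same split within a pair. eIF4G2 was -2.54, -2.28, -3.10 and -2.68 on the 4 arrays, a fitted -2.65 ± 0.18 (limma adjusted p = 5.06e-14). eIF4G1 read 0.96, 0.64, 0.00 and 0.23 and was called higher in ovary at 0.46 ± 0.13 (limma adjusted p = 0.00259), with 1 array at 0. With arrays scaled to the same spread eIF4G1 was 0.26 and eIF4E1 0.21, and neither was called. Within each array eIF4G1 exceeded eIF4G2 by 2.91 to 3.50, a mean of 3.11 ± 0.28 (SD, n = 4). That is a difference between their ratios and says nothing of which gene had more RNA. The helicase gene eIF4A was higher in ovary on all 4 arrays (1.30, 0.68, 0.64 and 0.99), a fit of 0.90 ± 0.15. eIF4H2, whose mammalian relative eIF4H aids the helicase, was lower in ovary on all 4 (-1.70, -1.16, -1.73 and -1.40), a fit of -1.50 ± 0.14. eIF4A3 and eIF4H1, the other genes looked for in these families, were not analysed here.

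The eIF3 complex divided by copy. Without eIF3d2, eIF3f2 and eIF3g2, 11 of its 13 genes on the array were higher in ovary and none was lower, with a median ratio of 0.69. All 3 of those copies were lower in ovary. Over all elements tested, 34.8% were higher in ovary and 31.9% lower. eIF3d2 was -2.23, -1.43, -2.75 and -1.52, a fit of -1.98 ± 0.18, while eIF3d1, which encodes the subunit that can hold a cap in human cells, was 1.495, 1.10, 1.36 and 1.35, a fit of 1.33 ± 0.09 (limma adjusted p = 2.59e-14). The arrays of the 2 copies did not overlap, and eIF3d1 exceeded eIF3d2 within each array by 2.53 to 4.10 (mean 3.31 ± 0.73, SD, n = 4). eIF3g2 was -0.50, -0.27, -1.09 and -0.63 and eIF3g1, a subunit with an RNA-binding domain, was 1.12, 0.92, 0.98 and 0.82. On each of the 4 arrays eIF3g1 lay above eIF3g2, by 1.19 to 2.07 (mean 1.58 ± 0.37, SD). Each of eIF3f1 (1.48, 1.11 and 1.61) and eIF3f2 (-1.52, -1.26 and -0.16) lacked a value on 1 of the 4 arrays. On the 2 arrays that measured both, eIF3f1 lay above eIF3f2, with a mean difference of 2.94. Whether probes of close copies also bound each other's transcripts was not tested.

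**Figure D2:**
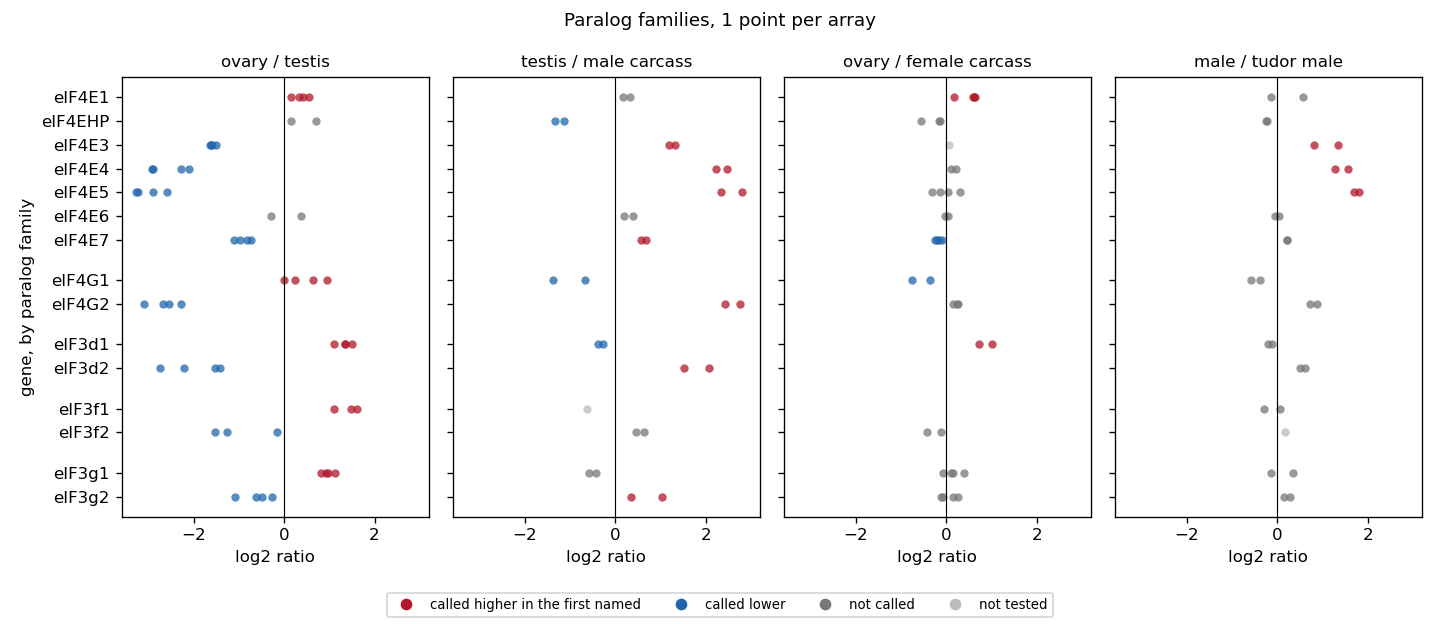
Log2 ratios of the eIF4E, eIF4G, eIF3d, eIF3f and eIF3g copies in ovary over testis, testis over male carcass, ovary over female carcass and male over tudor male, 1 point per array that measured the gene. In the first panel eIF4E5 sits between -3.28 and -2.60 and eIF4E1 between 0.15 and 0.54.

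Among the remaining eIF3 subunits, eIF3c (1.16, 1.01, 0.77 and 0.89) and eIF3b (1.11, 1.12, 0.60 and 0.92) were higher in ovary on all 4 arrays, at 0.96 ± 0.14 and 0.94 ± 0.12. eIF3c and eIF3b belong to the core of the complex, together with eIF3a at 0.69 ± 0.10 and eIF3i at 0.81 ± 0.12. The smaller ratios of eIF3m (0.46), eIF3e (0.44), eIF3h (0.35) and eIF3l (0.30) were called, but each of the 4 lost its call without at least 1 array. eIF3j, which joins the complex loosely, was 0.15 ± 0.07 (limma adjusted p = 0.0526) and eIF3k 0.02 ± 0.11, neither called.

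Factors that handle the initiator tRNA and the joining of subunits were more mixed. Of the 5 eIF2B subunits, 4 were higher in ovary, from 0.88 ± 0.13 for eIF2Bgamma and 0.61 ± 0.07 for eIF2Balpha to 0.49 ± 0.12 for eIF2Bepsilon and 0.28 ± 0.07 for eIF2Bdelta. eIF2Bbeta, at 0.17 ± 0.12, was not called. Over all elements tested, 34.8% were higher in ovary and 31.9% lower. eIF2beta, a subunit of eIF2, was lower in ovary at -0.50 ± 0.09, with arrays of -0.59, -0.06, -0.94 and -0.41. eIF2A, which in mammalian cells can deliver initiator tRNA without eIF2, was lower on each array (-0.62, -0.51, -1.11 and -1.14), a fit of -0.84 ± 0.13. The element that stands for eIF5B was lower on each array as well (-0.66, -0.48, -1.13 and -0.71), a fit of -0.75 ± 0.11. A second eIF5B element read 0.09, 0.18, -0.37 and 0.18 on the same arrays and was not called. eIF1, which guards start codon choice, eIF5 and eIF6, which keeps the large subunit free, stood at 0.03, 0.09 and 0.04 and were not called.

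Each gonad was also set against the carcass of its own sex. In testis over male carcass 16 of 37 genes were higher in testis and 4 lower, where 52.9% of 13113 elements were called, 26% higher and 26.9% lower. eIF4G2 (2.75 and 2.42), eIF4E5 (2.81 and 2.35) and eIF4E4 (2.48 and 2.23) led on both arrays, 9 and 10. Their fitted ratios were 2.59 ± 0.26, 2.58 ± 0.18 and 2.36 ± 0.18. eIF3d2 followed at 1.80 ± 0.26, then eIF5B at 1.53 ± 0.16, eIF4H2 at 1.33 ± 0.20, eIF2A at 1.32 ± 0.19, eIF2beta at 1.28 ± 0.14 and eIF4E3 at 1.26 ± 0.17. eIF3g2 (0.69 ± 0.13), eIF3k (0.66 ± 0.17), eIF1 (0.64 ± 0.19), eIF4E7 (0.63 ± 0.08), eIF3l (0.45 ± 0.18), eIF3a (0.42 ± 0.14) and eIF6 (0.22 ± 0.09) made up the rest. The 4 genes lower in testis were eIF4EHP (-1.23 ± 0.19), eIF4G1 (-1.02 ± 0.19), eIF2Bgamma (-0.46 ± 0.16) and eIF3d1 (-0.33 ± 0.13). eIF4G1 and eIF4G2 thus lay on opposite sides of 0 on both arrays, eIF4G1 at -0.68 and -1.37. Without array 9 limma called 12 of these genes. eIF3f2 was 0.55 ± 0.23 and missed the threshold (limma adjusted p = 0.056). All 6 accessory gland genes tested were higher in the testis RNA (1.12 to 1.65), and their part in these ratios was not tested.

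In ovary over female carcass 15 of 35 genes were higher in ovary and 2 lower, where 49.2% of 13111 elements were called, 22.5% higher and 26.7% lower. eIF3d1 stood first at 0.86 ± 0.13 on 2 arrays (1.00 and 0.72), followed by eIF3c at 0.74 ± 0.14, eIF3a at 0.73 ± 0.14 and eIF3i at 0.65 ± 0.18. The other called genes were eIF3h (0.62), eIF3e (0.60), eIF3b (0.59), eIF5B (0.58), eIF4A (0.53), eIF4E1 (0.51), eIF2A (0.48), eIF1 (0.46), eIF3k (0.44), eIF2beta (0.41) and eIF2Balpha (0.21). eIF4G1 (-0.56 ± 0.19) and eIF4E7 (-0.18 ± 0.06) were lower in ovary. The testis-higher cap-binding copies were near 0 here and not called, with -0.03 ± 0.12 for eIF4E5 and 0.16 ± 0.18 for eIF4E4, and the same held for eIF4G2 at 0.16 ± 0.21. eIF3d2, eIF4E3 and eIF3f1 had too few arrays to be tested in that comparison. Without array 7a 6 genes were called, and without 8a 7. Genes on the first subarray then had too few arrays to be tested. Among genes still tested, only eIF4A lost its call, at 0.36 without 7a (limma adjusted p = 0.0814).

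The gonad ratios combined into a few patterns. eIF1, eIF2A, eIF2beta, eIF3a, eIF3k and eIF5B were called higher than carcass in both gonads. eIF3d1 was higher in ovary and lower in testis, and eIF4E7 was the reverse, while eIF4G1 was lower than carcass in both. Each of these patterns includes a call that an alternative ended. eIF3d1 in testis was not called with arrays not centred (limma adjusted p = 0.0531), scaled to the same spread (0.253), or without array 9 or 10. eIF4E7 in ovary was not called with a and b arrays averaged (limma adjusted p = 0.0771), without 7b and 8b (0.139), or on its own arrays (0.0737). A second element printed for eIF4E7 read 0.16, -0.02 and 0.43 on arrays 7a, 7b and 8a, so it was not lower in ovary on 7a and 8a. eIF4G1 in ovary was not called without the dye coefficient (limma adjusted p = 0.179). eIF1 and eIF3a in testis and eIF2A and eIF3k in ovary also lost their calls with arrays scaled to the same spread. The difference between the gonad ratios of the sexes was tested itself, and it was called for 14 of 35 genes, where 34.2% of all elements tested were called, 15.2% positive and 19% negative. It was negative, so further towards testis, for eIF4E5 (-2.61 ± 0.21), eIF4G2 (-2.43 ± 0.33), eIF4E4 (-2.19 ± 0.26), eIF4H2 (-1.46 ± 0.28), eIF5B (-0.95 ± 0.23), eIF2beta (-0.86 ± 0.20), eIF2A (-0.83 ± 0.27), eIF4E7 (-0.81 ± 0.10) and eIF3g2 (-0.64 ± 0.16). It was positive for eIF3d1 (1.19 ± 0.18), eIF4EHP (0.99 ± 0.25), eIF2Bgamma (0.69 ± 0.19), eIF3c (0.68 ± 0.24) and eIF2Balpha (0.31 ± 0.10). Without array 7a 7 of these differences were called, and without 8a 8. Genes on the first subarray were then not tested. Among those still tested only eIF3c lost its call, at 0.58 without 7a (limma adjusted p = 0.0782). eIF5B, eIF2A and eIF2beta were called higher in both gonads than in carcass, and the difference towards testis was called for all 3, though not for eIF5B and eIF2A with arrays scaled to the same spread.

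Whole females had more transcript than whole males for 20 of 38 initiation factor genes and less for 7, where 56.7% of 12987 elements were called, 28.9% higher and 27.8% lower. All 13 eIF3 genes other than eIF3d2, eIF3f2 and eIF3g2 were called higher in females, with a median of 0.73. eIF3d1 read 1.23, 1.34 and 1.18 on the 3 arrays that measured it, a fit of 1.26 ± 0.10. eIF3b read 0.87, 0.92, 1.53 and 0.95 on arrays 1a, 1b, 2a and 2b, with 2a well above the others, for a fit of 1.07 ± 0.12. The other female-higher genes were eIF4E1 (0.76 ± 0.09), eIF5 (0.33 ± 0.07), eIF6 (0.26 ± 0.06), and, of eIF2B, the gamma (0.55 ± 0.11), epsilon (0.53 ± 0.12), alpha (0.32 ± 0.06) and delta (0.31 ± 0.07) subunits. On the male side eIF4E5 was -2.13, -2.25, -2.35 and -2.16, close together on all 4 arrays, for a fit of -2.22 ± 0.12 (limma adjusted p = 5.7e-16). eIF4E4 was -2.03, -1.23, -1.30 and -1.46 (-1.51 ± 0.12) and eIF4G2 -0.97, -1.05, -2.35 and -1.11 (-1.37 ± 0.18). eIF4H2 (-0.92 ± 0.14), eIF3d2 (-0.89 ± 0.21), eIF4E3 (-0.88 ± 0.14) and eIF4E7 (-0.47 ± 0.06) were also higher in males. eIF3d2 lost its call without array 1a (-0.61, limma adjusted p = 0.0632). Without array 2a the ratio was 0.17 for eIF3h, 0.32 for eIF3e and 0.27 for eIF2Bepsilon, and none of these was called (limma adjusted p = 0.317, 0.0709 and 0.0733). With arrays scaled to the same spread eIF3f1, eIF3h and eIF3j were not called.

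**Figure D3:**
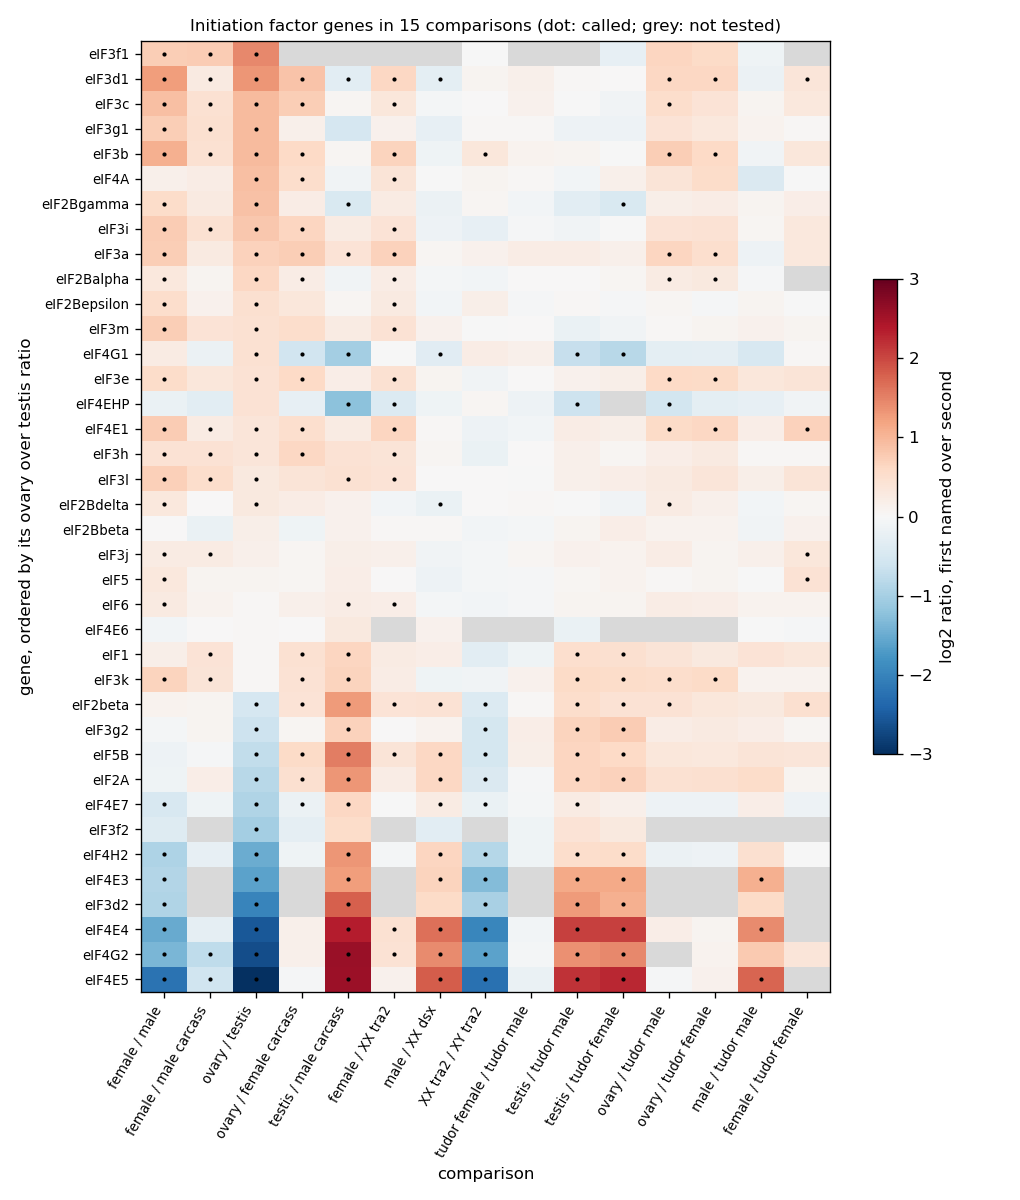
Fitted log2 ratio of the 38 initiation factor genes (vertical, ordered by ovary over testis) in the 15 comparisons (horizontal), on a colour scale from -3 to 3, with a dot for a limma call and grey where fewer than 2 arrays measured the gene. The column of tudor females over tudor males is pale throughout, from -0.19 for eIF4E5 to 0.22 for eIF3a.

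In the gonadectomized carcasses fewer of these genes passed the test. Of 35 genes, 12 were higher in female carcass and 2 lower, where 18.6% of 11690 elements were called, 9.97% higher and 8.64% lower. 10 of the 12 were eIF3 genes, from 0.24 for eIF3j to 0.76 for eIF3f1, and the others were eIF1 (0.40 ± 0.12) and eIF4E1 (0.23 ± 0.09). eIF4E5 was -0.66, -0.39, -0.92 and -0.38 on arrays 3a, 3b, 4a and 4b, below 0 on each, a fit of -0.59 ± 0.12. eIF4G2 was measured on 2 arrays, at -0.33 on 3a and -1.19 on 4a, a fit of -0.76 ± 0.26 (limma adjusted p = 0.04). That call was lost with arrays taken as independent (limma adjusted p = 0.0518) and without the dye coefficient (0.0662). Without array 4a only 2 genes were called, and a limma fit of the 4 carcass arrays alone made 0 calls in 32 genes, 6 of them at an unadjusted p below 0.05. Gonad markers differed between the carcasses as well. All 4 follicle cell genes (0.63 to 1.47) and 3 of 4 ovary germline genes were higher in female carcass, 5 of 6 testis genes were lower (ratios from -1.33 to 0.15), and 6 of 7 accessory gland genes were lower (ratios from -1.89 to -0.47). Their part in the carcass ratios was not tested.

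In tudor females over tudor males limma called 0 of 34 genes, none of them at an unadjusted p below 0.05, and 1.21% of 11495 elements were called. A limma fit of these 2 arrays alone also called 0, with 7 of 34 genes at an unadjusted p below 0.05. Scaling all arrays to the same spread gave 6 calls, but it also raised the calls over all elements from 139 to 3272. This comparison had 2 arrays, both in 1 dye orientation, so its ratio is what remains after subtracting a dye coefficient estimated over all arrays. The fitted ratios were -0.19 ± 0.17 for eIF4E5, -0.08 ± 0.18 for eIF4E4, -0.05 ± 0.26 for eIF4G2, 0.15 ± 0.13 for eIF3d1 and 0.10 ± 0.18 for eIF3b. The sex ratio of whole flies minus that of tudor flies was called for 18 of 34 genes, where 27.8% of elements were, 13.8% positive and 14% negative. It was -2.03 ± 0.21 for eIF4E5, -1.43 ± 0.22 for eIF4E4, -1.32 ± 0.31 for eIF4G2, -0.80 ± 0.24 for eIF4H2 and -0.42 ± 0.10 for eIF4E7, all negative. It was positive for the other 13, led by eIF3d1 (1.11 ± 0.16), eIF3b (0.97 ± 0.22), eIF4E1 (0.85 ± 0.15), eIF3i (0.80 ± 0.21) and eIF3c (0.78 ± 0.24). Without array 17a 8 of these differences were called, and without 17b 6. With arrays scaled to the same spread those of eIF4G2, eIF4H2, eIF4E7, eIF3d1 and eIF3c were not called. Against carcass in place of tudor flies, 10 of 35 differences were called (37.8% of elements, 18% positive and 19.8% negative), among them eIF4E5 (-1.63 ± 0.17), eIF4E4 (-1.23 ± 0.18), eIF3d1 (1.00 ± 0.14) and eIF4E1 (0.53 ± 0.12). Without array 4a 16 were called. The carcass ratio minus the tudor ratio was called by limma for 0 of 33 genes, 4 of them at an unadjusted p below 0.05, and for 0.256% of elements.

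**Figure D4:**
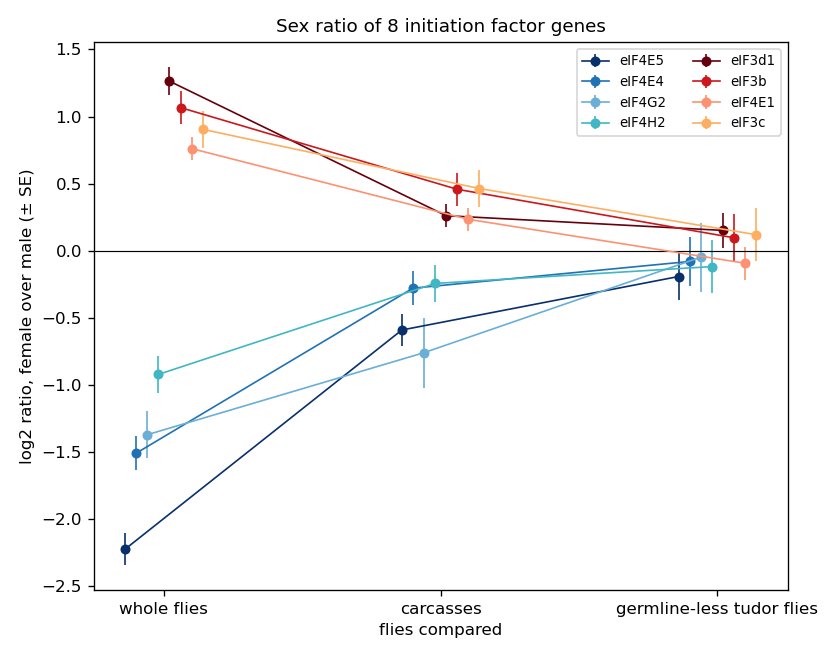
Fitted log2 ratio of female over male with its SE for 8 initiation factor genes in whole flies, gonadectomized carcasses and tudor flies. For eIF4E5 the ratio goes from -2.22 in whole flies to -0.59 in carcasses and -0.19 in tudor flies.

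Whole males and dissected gonads were also set against tudor flies, in which the soma of the fly is present without germ cells. In whole male over tudor male 3 of 37 genes were called, all of them higher in the y w male, where 7.35% of elements were called, 5.98% higher and 1.37% lower. They were eIF4E5 (1.79 and 1.70 on arrays 22 and 23, a fit of 1.75 ± 0.18), eIF4E4 (1.26 and 1.57, a fit of 1.42 ± 0.18) and eIF4E3 (0.81 and 1.34, a fit of 1.08 ± 0.17). eIF4E3 was 0.73 without array 23 and then not called (limma adjusted p = 0.115). eIF4G2 was 0.87 and 0.71 and missed the threshold at 0.79 ± 0.26 (limma adjusted p = 0.0621). All 5 testis genes tested were higher in the y w male (2.01 to 2.34). In whole female over tudor female 5 of 31 genes were called, all higher in the y w female, where 30.4% of elements were called, 15.5% higher and 14.9% lower. They were eIF4E1 (0.70 ± 0.13), eIF2beta (0.47 ± 0.14), eIF5 (0.43 ± 0.11), eIF3d1 (0.35 ± 0.13) and eIF3j (0.34 ± 0.10). Without array 25 none of the 5 was called by limma, 2 genes being at an unadjusted p below 0.05.

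Testis over tudor male gave 13 higher and 2 lower of 37 genes (32.1% of elements called, 16.6% higher and 15.5% lower), and testis over tudor female 12 higher and 2 lower of 36 (37.2%, 19.4% higher and 17.8% lower). eIF4E5 was 2.17 ± 0.17 against tudor males and 2.26 ± 0.17 against tudor females, and eIF4E4 was 2.04 ± 0.18 and 2.04 ± 0.18. eIF4G2 was 1.37 ± 0.26 and 1.44 ± 0.26, but 0.75 without array 18a and 0.78 without 20a, neither of them called (limma adjusted p = 0.184 and 0.111). eIF4E3 was 1.13 ± 0.17 and 1.14 ± 0.17, and eIF3d2 1.29 ± 0.27 and 1.07 ± 0.27. eIF4G1 was lower in testis at -0.69 ± 0.19 and -0.84 ± 0.19. Ovary over tudor male gave 10 higher and 1 lower of 33 genes (30.4% of elements, 14.3% higher and 16.1% lower), and ovary over tudor female 7 higher and 0 lower of 34 (24.6%, 11.9% higher and 12.7% lower). Here eIF3b was 0.73 ± 0.18 and 0.59 ± 0.18, eIF3d1 0.61 ± 0.13 and 0.63 ± 0.13, eIF3a 0.64 ± 0.14 and 0.51 ± 0.14, and eIF4E1 0.58 ± 0.12 and 0.61 ± 0.12. These 4 comparisons share sources of RNA with each other and with those above, so they are not independent of them. Each had 2 arrays in 1 dye orientation, and the counts fell to 4 without array 18a, to 5 and 2 without 19a and 19b, to 9 and 8 without 20a and 20b, and to 1 without 21b.

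Mutants of the sex-determination pathway were compared next. In whole males over XX flies mutant for dsx, a gene whose male and female proteins direct somatic sex, the groups differ in sex chromosomes as well as in genotype, and 9 of 37 genes were higher in males and 3 lower, where 26.7% of 12633 elements were called, 15.1% higher and 11.6% lower. eIF4E5 was 2.15, 1.64, 1.98 and 1.52 on arrays 13a, 13b, 14a and 14b, above 1.5 on each, a fit of 1.82 ± 0.12. eIF4E4 was 2.00, 1.44, 1.66 and 1.501 (1.65 ± 0.12) and eIF4G2 1.81, 1.27, 1.57 and 1.05 (1.43 ± 0.18). eIF4E3 (0.68), eIF4H2 (0.64), eIF5B (0.62), eIF2A (0.61), eIF2beta (0.43) and eIF4E7 (0.24) were the other male-higher genes. eIF4G1 (-0.34 ± 0.13), eIF3d1 (-0.30 ± 0.09) and eIF2Bdelta (-0.19 ± 0.07) were lower in males. eIF4G1 lost its call without any 1 of the 4 arrays and without the dye coefficient (limma adjusted p = 0.323). eIF2Bdelta lost its call without 13a, 14a or 14b, and eIF3d1 without 14b. Of the 12 eIF3 genes tested other than the 3 copies, none was higher and 1 was lower, with a median of -0.09. All 6 testis genes were higher in males (0.75 to 2.29), and all 4 fat body genes (-1.65 to -0.71) and all 4 flight muscle genes (-1.89 to -1.14) were lower. Their part in these ratios was not tested.

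Between tra2 mutants that differ in their sex chromosomes, 1 of 36 genes was higher in XX flies and 11 were lower, where 20.5% of 11025 elements were called, 5.18% higher and 15.3% lower. eIF4E5 was -1.86, -2.76 and -2.14 on the 3 arrays that measured it, a fit of -2.25 ± 0.14, eIF4E4 -1.73, -2.32 and -1.77 (-1.95 ± 0.15) and eIF4G2 -1.29, -2.01 and -1.65 (-1.61 ± 0.21). eIF4E3, measured on all 4, was -1.23, -1.93, -0.99 and -1.09 (-1.31 ± 0.12), lowest on array 15b, and -1.10 without it. Array 15b had no value for eIF4E5, eIF4E4 or eIF4G2. The other genes lower in XX flies were eIF3d2 (-0.97), eIF4H2 (-0.86), eIF5B (-0.52), eIF3g2 (-0.52), eIF2A (-0.44), eIF2beta (-0.41) and eIF4E7 (-0.21). The 1 gene higher in XX flies, eIF3b (0.35 ± 0.12), lost its call without array 15a, 15b or 16b. In all, 10 genes were called without array 15b and 7 without 16a. All 6 testis genes were lower in XX flies (-3.15 to -0.99) and all 3 photoreceptor genes were higher (1.12 to 2.04), and their part was not tested. The 11 are the testis-higher genes of ovary against testis that could be tested here. That set was chosen on the gonad arrays, and its median in the tra2 comparison was -0.86. How many of all testis-higher elements were also lower in XX flies was not counted. The overlap is therefore not a result about initiation factors in particular.

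In whole females over XX tra2 mutants, 18 of 33 genes had more transcript in females and 1 had less, where 56.5% of 12014 elements were called, 28.1% higher and 28.4% lower. The core eIF3 genes eIF3a (0.70 ± 0.10) and eIF3b (0.67 ± 0.12), eIF4E1 (0.66 ± 0.09) and eIF3d1 (0.61 ± 0.09) stood highest, and eIF4EHP (-0.41 ± 0.15) was the lower gene. Without array 11b 12 genes were called. eIF4E4 (0.46 ± 0.15) and eIF4G2 (0.44 ± 0.18), which were lower in whole females than in whole males, were called higher in females than in these mutants, but neither call is stable. eIF4E4 fell to 0.24 without array 12a (limma adjusted p = 0.254) and also lost its call without 11b. eIF4G2 lost its call without 11b, 12a or 12b, without the dye coefficient and with arrays scaled to the same spread. eIF4EHP lost its call without 11b or 12a and with scaled arrays.

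For 5 of the 38 genes several elements were printed, and the one measured on most arrays stands for the gene above. The elements did not always read alike. In ovary over testis the second element of eIF5B was 0.02 and not called, against -0.75 for the first, and the second element of eIF5 was called at 0.51, against 0.09. Those of eIF4E1 were 0.50 and 0.87, both called, and that of eIF4E7 was -1.30, also called. In testis over male carcass the second eIF5B element was 0.76 and the second eIF4E7 element 1.63, both called and above 0 like the first. In male over XX dsx the second eIF5B element read 0.31, -0.09, 0.29 and 0.18 on arrays 13a, 13b, 14a and 14b, where the first had a fit of 0.62. In XX over XY tra2 it read -0.07, -0.54 and -0.11 on arrays 15a, 16a and 16b, where the first had a fit of -0.52.

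Other genes of translation were listed beside the initiation factors, and 24 of 31 were on the array. In ovary over testis, where 34.8% of elements were higher and 31.9% lower, all 5 elongation factors were higher in ovary, from eEFSec (0.32) and eEF1alpha2 (0.54) to eEF5 (1.51) and eEF1gamma (1.87), a subunit of the complex that recharges the tRNA-delivering factor with GTP. Of 16 cofactors and regulators 7 were higher and 3 lower. tyf (1.53), Lk6 (1.20), a kinase of eIF4E, and pAbp (0.67), the poly(A)-binding protein, were among the higher genes. Paip2 (-1.71), known from mammals as an inhibitor of the poly(A)-binding protein, 4E-T (-0.54), which binds eIF4E, and bel (-0.41), a helicase, were the lower genes. Of 3 release and recycling factors eRF3 (0.80) and pelo (0.23) were higher and eRF1 (-0.53) was lower. In testis over male carcass, where 26% of elements were higher and 26.9% lower, 3 of the 5 elongation factors were lower in testis, eEF1gamma at -0.74 among them, and 7 of 15 cofactors were higher and 1 lower.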

How the data were processed

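The deposited values are log ratios of both channels of 46 arrays, 31464 spots each, taken as log2. No source used here gives the background correction, the normalization or how missing values arose. Per the labels, arrays were scanned on a GenePix 4000A. Duplicate spots were averaged to 15732 elements, each array was centred on its median, and values were turned by the array titles. In all, 9626 values of the first subarray of arrays 7b and 8b, which ran opposite to the rest, were left out.

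All arrays were fitted together with limma 3.58.1 (R 4.3.3, statmod 1.5.0), with 1 coefficient per comparison, a dye coefficient per element and the hybridisation number as a random block (correlation -0.0877, prior degrees of freedom 4.31). Because this correlation is negative, arrays a and b of a hybridisation weigh slightly more than independent arrays would. Taken as independent, the arrays gave 10 calls in place of 14 for the carcasses, without eIF3d1, eIF3g1, eIF4E1 and eIF4G2. An element needed 2 arrays to be tested and was called where its p, adjusted by Benjamini-Hochberg within the comparison, was below 0.05. A gene with several elements is represented by the one with values on most arrays. All 38 genes are named. Those described in full are the 6 called genes with the highest and the 6 with the lowest ovary over testis ratio and the paralog families. The members, families, marker and translation lists were chosen with earlier results of these data known. Marker genes found on the array were 7 of 9 for accessory gland, 4 of 5 for fat body, 4 of 6 for flight muscle, 4 of 5 for follicle cells, 4 of 5 for ovary germline, 3 of 5 for photoreceptors and 6 of 7 for testis. In testis over male carcass, flight muscle genes (4 of 4) and photoreceptor genes (3 of 3) were lower, and of 4 fat body genes 2 were higher and 1 lower. On simulated data made from ovary over testis (13128 elements), 68.7%, 97.0% and 100.0% of elements changed by 0.5, 1 and 2 (log2) were recovered, with 13 false calls. Those data changed 67, 67 and 66 elements by these sizes, with normal noise at the fitted spread and no true ratio elsewhere. In ovary over testis itself 66.7% of elements were called, so recovery and false calls there may differ. Alternatives changed the centring, scaling, dye coefficient, block, missing-value filter, fold threshold and the arrays used.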

Additional observations from a re-analysis of the deposited data

Results flagged for a closer look

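For 185 sets of 4 arrays of a gene in a comparison, the highest or lowest array was compared with the rest, and 9 had a single array far from the other 3. Chance alone marks about 1 in 20 such sets. In whole female over male, array 2a read 1.53 for eIF3b where the others lay between 0.87 and 0.95, and -2.35 for eIF4G2 where the others lay between -1.11 and -0.97. In ovary over testis, array 6b read 0.14 for eIF3h against 0.39 to 0.44. In ovary over female carcass, array 7a read 1.13 for eIF4A against 0.30 to 0.39, and array 8b read 0.17 for eIF4E1 against 0.59 to 0.64. Array 11b read 0.63 for eIF2beta in female over XX tra2 against 0.32 to 0.37. Array 14a read 1.20 for eIF4H2 in male over XX dsx against 0.40 to 0.48. Array 15b of the tra2 mutants read -0.34 for eIF2Bgamma against 0.15 to 0.24, and -0.71 for eIF3e against 0.05 to 0.13.

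The gonad over carcass ratio was tested for a difference between the sexes (ovary minus testis), and 34.2% of all elements were called. That difference was called for 14 of 35 genes. It was -2.61 for eIF4E5, -2.43 for eIF4G2, -2.19 for eIF4E4, -1.46 for eIF4H2, -0.95 for eIF5B, -0.86 for eIF2beta, -0.83 for eIF2A, -0.81 for eIF4E7 and -0.64 for eIF3g2. It was 0.31 for eIF2Balpha, 0.68 for eIF3c, 0.69 for eIF2Bgamma, 0.99 for eIF4EHP and 1.19 for eIF3d1.

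The female over male ratio differed between whole flies and carcasses for 10 of 35 genes, where 37.8% of all elements were called. The whole-fly ratio minus the carcass ratio was -1.63 for eIF4E5, -1.23 for eIF4E4, -0.68 for eIF4H2, -0.35 for eIF4E7, 0.24 for eIF2Balpha, 0.29 for eIF2Bdelta, 0.47 for eIF3a, 0.53 for eIF4E1, 0.61 for eIF3b and 1.00 for eIF3d1. Between whole and tudor flies the female over male ratio differed for 18 of 34 genes, where 27.8% of all elements were called. The difference was -2.03 for eIF4E5, -1.43 for eIF4E4, -1.32 for eIF4G2, -0.80 for eIF4H2 and -0.42 for eIF4E7. It was 0.30 for eIF2Balpha, 0.31 for eIF6, 0.37 for eIF5, 0.53 for eIF3a, 0.56 for eIF2Bepsilon, 0.64 for eIF2Bgamma, 0.72 for eIF3m, 0.74 for eIF3l, 0.78 for eIF3c, 0.80 for eIF3i, 0.85 for eIF4E1, 0.97 for eIF3b and 1.11 for eIF3d1.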

How the results depend on the processing

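Of 668 results, each a gene in a comparison, 248 were called. Of these, 134 kept their direction and call status under every alternative other than leaving out 1 array at a time. With those included, 108 did. Alternatives under which a result was not tested were passed over. The fold threshold and the counting of every element were not part of these counts. Counts of called initiation factor genes moved by over 1.5 times as follows, and the cause was not tested except that some alternatives test fewer genes. With the elements measured on every array of the 15 comparisons (19 of the 38 genes), the counts were 14 for female over male, 9 for the carcasses, 16 for ovary over testis, 11 for ovary over female carcass, 7 for testis over male carcass, 10 for female over XX tra2, 4 for male over XX dsx, 4 for XX over XY tra2, 6 for testis and 6 for ovary over tudor male, 5 for testis and 3 for ovary over tudor female, 0 for male over tudor male (limma, 5 at an unadjusted p below 0.05), 5 for whole minus carcass, 8 for whole minus tudor and 5 for the gonad difference. With a fold of at least 1.5 they were 17 for female over male, 3 for the carcasses, 7 for ovary over female carcass, 4 for female over XX tra2, 7 for male over XX dsx, 6 for XX over XY tra2, 4 for ovary over tudor male, 9 for testis and 3 for ovary over tudor female, 1 for female over tudor female and 5 for whole minus carcass. With a and b arrays averaged they were 8 for the carcasses, 6 and 3 for ovary over tudor male and tudor female, 7 for male over tudor male and 11 for whole minus tudor. With a comparison's own arrays they were 0 for the carcasses (limma, 6 at an unadjusted p below 0.05), 6 for ovary over female carcass, 6 for XX over XY tra2, 8 and 4 for testis and ovary over tudor male, and 8 and 2 over tudor female. With arrays scaled to the same spread they were 12 for female over XX tra2, 6 for tudor female over tudor male, 15 for ovary over tudor female, 14 for male over tudor male, 3 for whole minus carcass, 11 for whole minus tudor, 7 for carcass minus tudor and 8 for the gonad difference. Where these scaled counts rose, calls over all elements rose too. They were 3272 for tudor female over tudor male (139 in the main fit) and 3221 for male over tudor male (981). For ovary over tudor female they were 4233 (2943), and for carcass minus tudor 2003 (27). XX over XY tra2 had 6 with elements measured on every array of that comparison.

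With the first subarray of arrays 7b and 8b as deposited, ovary over female carcass had 7 calls, and 5 ratios turned sign, eIF2beta (-0.10), eIF3a (-0.0304), eIF3e (-0.0059), eIF3i (-0.0256) and eIF3k (-0.0186).

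Leaving out 1 array gave 25 to 27 calls for female over male, 2 to 14 for the carcasses (2 without 4a), 28 to 29 for ovary over testis, 6 to 17 for ovary over female carcass (6 without 7a), 12 to 14 for testis over male carcass (12 without 9), 12 to 18 for female over XX tra2 (12 without 11b), 9 to 11 for male over XX dsx, 7 to 10 for XX over XY tra2 (7 without 16a), 4 to 10 and 2 to 5 for testis and ovary over tudor male (fewest without 18a and 19b), 8 to 9 and 1 to 6 over tudor female (1 without 21b), 2 to 3 for male over tudor male, 0 to 4 for female over tudor female (limma, 0 without 25, 2 at an unadjusted p below 0.05), 8 to 16 for whole minus carcass (16 without 4a), 6 to 17 for whole minus tudor (6 without 17b), and 7 to 14 for the gonad difference (7 without 7a). Carcass minus tudor and tudor female over tudor male stayed at 0 under these. Without 7a or 8a, genes on the first subarray were not tested in ovary over female carcass or the gonad difference. Most of the fall in those counts is therefore a loss of tests. Where 1 array of a comparison of 2 was left out, the lone array is assumed to vary like the others. The own-array fit could not be fitted for testis over male carcass, male over tudor male, female over tudor female and the differences between comparisons. No paired analysis was possible because the arrays of a comparison carry the hybridised pair in their channels and the comparisons share no replicate numbers. Small ratios of dim elements, and genes with 2 measured arrays such as eIF4E6 and eIF4EHP, are the least certain.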
